A study of Mus musculus with 9 samples.

Results

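The TGF-beta and BMP signalling genes are the secreted ligands of the transforming growth factor beta superfamily, their receptors, the Smad proteins that carry the signal to the nucleus, extracellular antagonists and the Id family of target genes. They were chosen by symbol, as the protein-coding genes named Tgfb, Tgfbr, Bmp, Bmpr, Gdf, Inha, Inhb, Acvr, Smad, Nog, Chrd, Grem or Id with the family's numbering, and 58 of the 49315 gene IDs in the count table met this rule. One of them, Bmp2k, is a BMP-inducible protein kinase rather than a ligand and was kept apart. Poly(A)-selected RNA of whole brain was sequenced from wild-type male C57BL/6J mice aged 3 months (young, n = 5) or 33 months (old, n = 4), and the purpose of the transcript data in the study was to set mRNA changes beside those of proteins and their modifications. Genotype was wild type in both groups and the labels give no treatment, so that age is the only factor they separate. The old mice are named by the numbers of their labels (1, 3, 4 and 5).

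A dimeric ligand of this superfamily binds a pair of type I and type II receptor kinases, and the type II receptor activates the type I receptor. The type I receptor then phosphorylates receptor-activated Smads. In the textbook scheme TGF-beta and activin act through Smad2 and Smad3, BMPs through Smad1, Smad5 and Smad9, and both groups enter the nucleus with the common Smad4. Noggin, chordin and gremlin hold BMPs outside the cell, the inhibitory Smads Smad6 and Smad7 limit the signal inside it, and the Id genes are direct BMP targets. In brain TGF-beta 1 is known for keeping microglia in their resting state, BMPs for steering glial fate, and BMP9 and BMP10 for acting on endothelium through the type I receptor Acvrl1.

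Libraries held between 14229259 and 21150439 counts, and the totals of the ages did not separate (exact permutation test over 126 splits of the mice, two-sided, p = 0.698). Young mouse 4, old mouse 5 and old mouse 4 stood apart from the other libraries. Young mouse 4 had a summed level of 8 reactive microglia markers of 159 CPM (counts scaled to library size), against 91.1 to 106 in the other young mice and 135 to 181 in the old mice. It was also the highest young library for 8 homeostatic microglia markers and 8 astrocyte markers. Old mouse 5 had a sum of 6 olfactory bulb markers of 296 CPM, against 120 to 146 in the other old mice and 123 to 207 in the young, where mouse 2 was highest. Calb2 was the largest part of that sum in every mouse. Cdhr1 of the same list had 14.9, 27.6, 3.83 and 72.1 CPM in old mice 1, 3, 4 and 5. Young mouse 2 had 31.6 CPM of Cdhr1, and the other young mice 4.015 to 5.91 CPM. Without old mouse 5 there were 7 members called higher and 4 lower: Bmp6, Bmp7, Inhba and Id2 lost their calls, and Nog and Gdf11 gained one. Old mouse 4 had the highest sum of 5 blood markers, at 409 CPM against 128 to 262 in the other old mice. Without it Bmp6 and Tgfbr3 lost their calls and Grem1 gained one, and without young mouse 4 Bmp6 and Tgfbr3 lost theirs and Bmp2, Tgfb1 and Tgfbr1 gained one. The part of olfactory bulb tissue, blood or microglia in these calls was not tested. In bulk tissue, fewer cells of a type and less RNA per cell cannot be told apart. Neuronal markers, which define the labelled tissue, summed to between 5292 and 5841 CPM in all 9 mice, at a ratio of 1.004 between the age means.

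Of the 58 genes, 46 had enough counts to be tested. In the old brain 10 were higher (Smad3, Smad6, Id1, Id3, Tgfbr2, Tgfbr3, Acvrl1, Bmp6, Bmp7 and Inhba), 3 were lower (Inhbb and Id2 among them) and 33 were not called. A gene was called where the quasi-likelihood test of edgeR gave it a p under 0.05 after Benjamini-Hochberg adjustment across the 18492 genes tested. The 13 calls are 28.3% of the tested members, beside 11.0% of all genes tested and 12.9% of tested protein-coding genes. By direction, the background was 6.09% higher and 4.89% lower. Every called change was modest: only Smad6 and Id1 also passed an absolute log2 fold change of 0.58, which 2.13% of all tested genes passed upwards and 0.373% downwards. That count of 2 was 4 without old mouse 1 or young mouse 4 and 5 without young mouse 2. Over the tested members the log2 fold changes had a median of 0.07, beside a median of -9.2e-05 over all tested genes, and 0.04 without young mouse 5. The CPM ranges of young and old mice did not overlap for 6 members that were higher and 3 that were lower with age, where 6.50% and 6.08% of all tested genes separated in those directions.

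**Figure D1:**
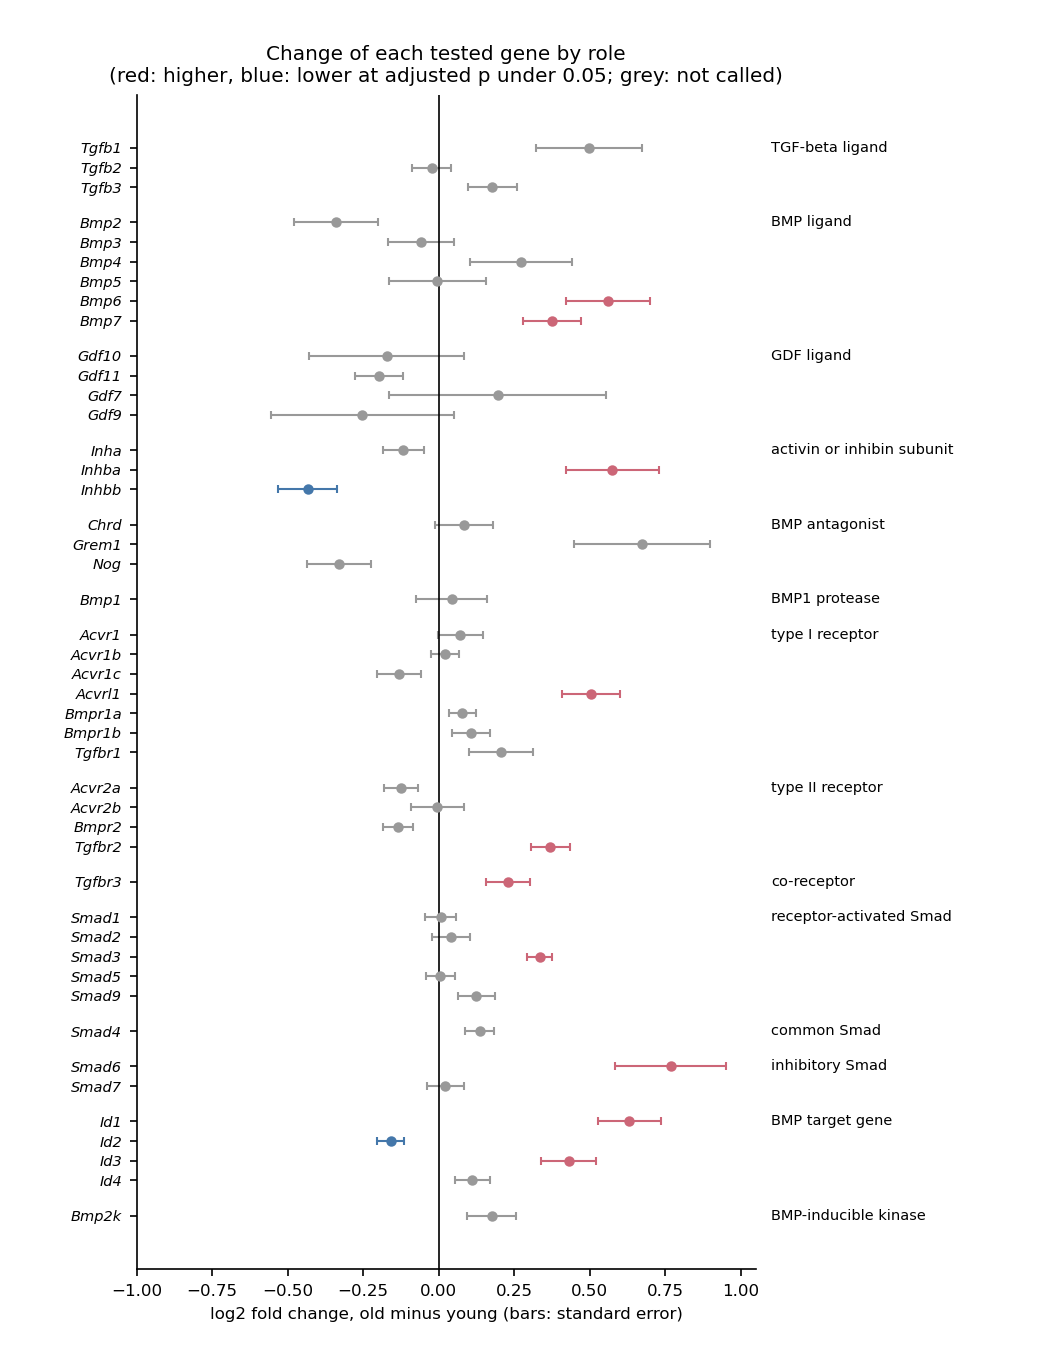
Each point is the log2 fold change (old minus young) of 1 tested gene, with its standard error as the bar, grouped by role. Red points are the 10 genes called higher in old brain, blue points Inhbb and Id2, which were called lower, and grey points the 33 not called. The receptor-activated Smads other than Smad3 lie close to 0, while Inhba and Inhbb, and Id1 and Id2, lie on opposite sides of it.

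**Figure D2:**
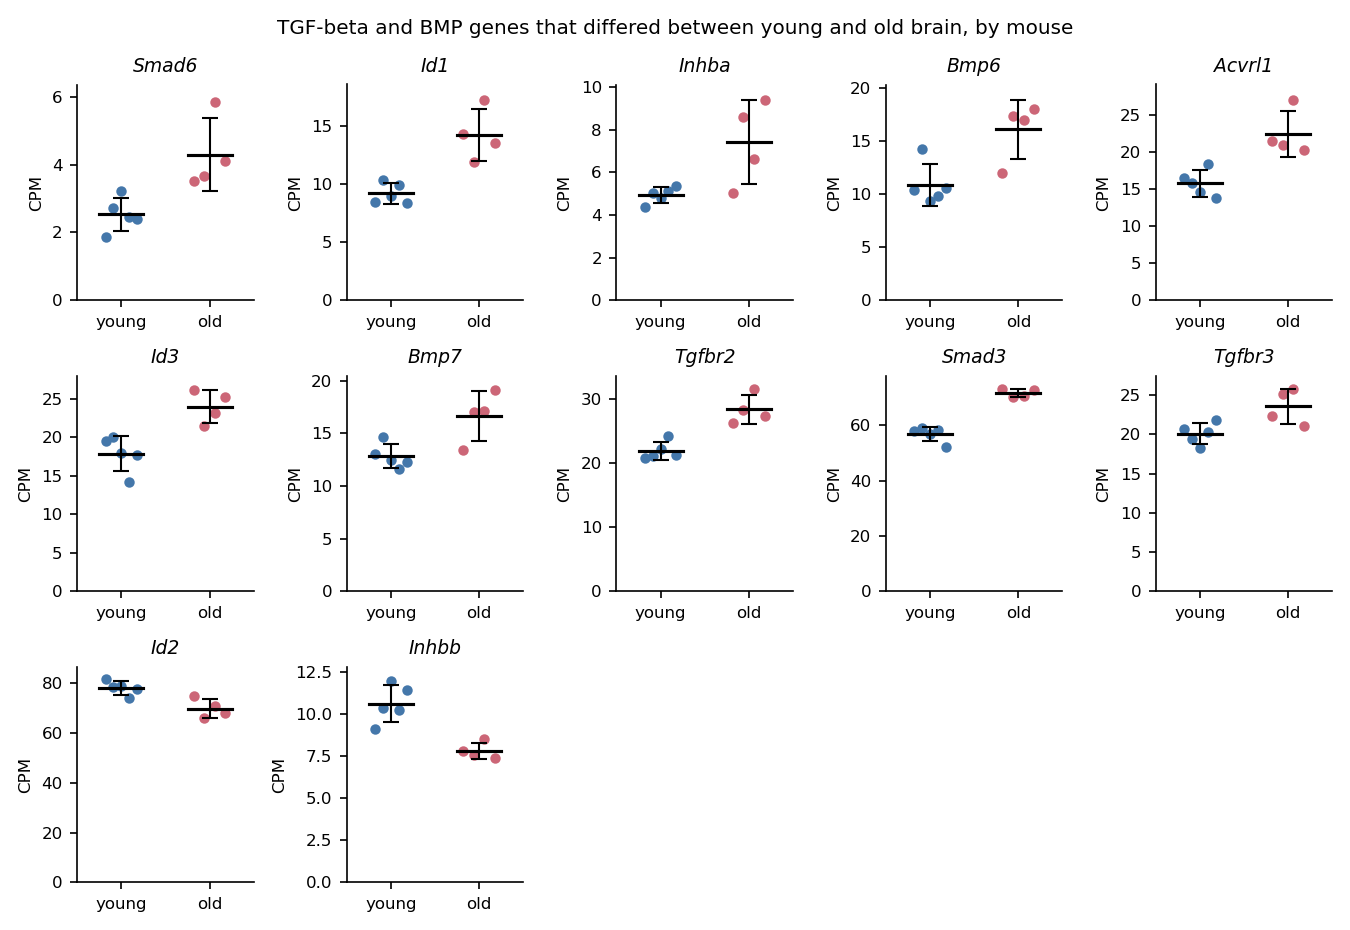
Each panel plots CPM on the vertical axis (from 0) for 1 called gene in the 5 young (blue) and 4 old (red) mice, with the mean as a line and the SD as the bar. The ages do not overlap for Smad6, Id1, Acvrl1, Id3, Tgfbr2, Smad3 and Inhbb, and they overlap for Inhba, Bmp6, Bmp7, Tgfbr3 and Id2.

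Among the BMP ligands, Bmp6 and Bmp7 rose with age and the others were not called. Bmp6 (chr13:38345107-38500302, plus strand, GRCm38), a BMP with a known part in iron balance through hepcidin, stood at 10.3, 14.2, 9.35, 9.81 and 10.6 CPM in young mice 1 to 5 and at 12.01, 17.3, 17.0 and 18.02 CPM in old mice 1, 3, 4 and 5. Old mouse 1 lay inside the young range, and the other 3 old mice lay above it. The log2 fold change was 0.56 (SE 0.14, edgeR adjusted p = 0.021). The call was lost, with adjusted p between 0.0504 and 0.0622, when any 1 of young mice 1, 3, 4 and 5 or old mice 3, 4 and 5 was left out, and 5.7% of the gene's exonic bases are shared with Txndc5 on the opposite strand. Bmp7 (chr2:172868012-172940321, minus strand), a BMP needed for kidney and eye development, gave 13.1, 14.7, 12.4, 11.6 and 12.3 CPM in young mice and 13.4, 17.0, 17.1 and 19.1 CPM in old mice. Again only old mouse 1 fell within the young values. Its log2 fold change was 0.38 (SE 0.10, edgeR adjusted p = 0.017), and it lost the call without old mouse 5 (0.30, adjusted p = 0.069). Per length, Bmp6 was the most abundant BMP ligand in both ages, at 11.8 ± 2.5 TPM (a level per transcript length) in young and 15.4 ± 2.3 TPM in old mice (SD, n = 5 and 4).

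The 4 other tested BMP ligands, Bmp2, Bmp3, Bmp4 and Bmp5, had log2 fold changes between -0.34 and 0.27. Bmp2 ranged from 3.91 to 5.70 CPM in young and from 3.28 to 4.37 CPM in old mice (log2 fold change -0.34, SE 0.14, edgeR adjusted p = 0.13). Its lowest young value came from young mouse 4, and without that library Bmp2 was called lower (-0.42, adjusted p = 0.048). Bmp1, which despite its name is a procollagen protease that also cleaves chordin, was not called (log2 fold change 0.04, SE 0.12, edgeR adjusted p = 0.86), and neither was Bmp2k (0.17, SE 0.08, adjusted p = 0.18).

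None of the 3 TGF-beta ligands was called in all 9 mice. Tgfb3 was the most abundant of them per length, at 14.0 ± 2.6 TPM in young and 14.1 ± 2.4 TPM in old mice (SD, n = 5 and 4), and its log2 fold change was 0.18 (SE 0.08, edgeR adjusted p = 0.17). Tgfb1, whose product microglia both make and need, had the largest estimate of the 3. It stood at 5.91, 6.64, 6.60, 9.71 and 5.81 CPM in young and at 9.40, 6.98, 12.2 and 10.6 CPM in old mice, for a log2 fold change of 0.50 (SE 0.18, edgeR adjusted p = 0.094). The high young value was that of mouse 4, the library with the high microglial markers. Without it the young mice lay below all 4 old mice and the gene was called higher (0.66, adjusted p = 0.0062), as it also was without old mouse 3 (0.62, adjusted p = 0.025). For Tgfb2 the log2 fold change was close to 0 (-0.02, SE 0.06, adjusted p = 0.86).

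The GDF ligands gave no call. Gdf10, a BMP-related ligand that astrocytes of the cerebellum make, was the highest per length (30.6 ± 8.5 TPM in young and 23.7 ± 9.9 TPM in old, SD, n = 5 and 4) and scattered most among the old mice, at 31.8, 14.6, 35.3 and 19.6 CPM against 25.4 to 32.8 CPM in the young. Its log2 fold change was -0.17 (SE 0.26, edgeR adjusted p = 0.73). Gdf9, an oocyte factor with a mean under 1 CPM in both ages, had the largest estimate of the group (-0.25, SE 0.30, adjusted p = 0.65), and depth does not allow a change of that size to be resolved there. Gdf11 was at -0.20 (SE 0.08, adjusted p = 0.13) and was called lower without old mouse 5 (-0.29, adjusted p = 0.020). Untested for low counts were Gdf1, Gdf2, Gdf3, Gdf5, Gdf6, Gdf15, Bmp8a, Bmp8b, Bmp10, Bmp15, Inhbc and Inhbe. Their highest count in any library was 12, in Bmp8b, and Gdf1 and Bmp10 had 0 counts in every library, which allows up to 3 counts per library. The exons of Gdf1 are wholly shared with other genes, so its reads could not be assigned to it. Gdf2 and Bmp10, which encode the circulating endothelial ligands BMP9 and BMP10, were thus at no more than 1 count in whole brain.

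The activin subunits moved in opposite directions. Inhba encodes the subunit of activin A and Inhbb that of activin B, and Inha encodes the alpha subunit that turns either into an inhibin. Inhba (chr13:16011851-16031621, plus strand) gave 4.39, 5.03, 4.81, 5.12 and 5.37 CPM in young mice and 5.05, 8.60, 6.62 and 9.39 CPM in old mice, so that 3 of 4 old mice lay above the young range and old mouse 1 lay in it. The log2 fold change was 0.575 (SE 0.15, edgeR adjusted p = 0.023), just under the fold threshold of 0.58. Leaving out young mouse 1 or 3 or old mouse 3 or 5 brought it to between 0.44 and 0.56 and lost the call (adjusted p between 0.0513 and 0.0917). Inhbb (chr1:119415465-119422248, minus strand) gave 9.09, 10.3, 11.96, 10.2 and 11.4 CPM in young mice and 7.81, 7.55, 8.48 and 7.40 CPM in old mice. All 4 old mice were below all 5 young mice, and the log2 fold change was -0.43 (SE 0.10, edgeR adjusted p = 0.0075), which stayed called with any mouse left out. Per length Inha was the highest of the 3, at 43.9 ± 8.2 TPM in young and 35.9 ± 6.1 TPM in old mice, and was not called (log2 fold change -0.12, SE 0.07, edgeR adjusted p = 0.30). As shares of the summed TPM of the 3 subunits, Inhba went from 11.5% ± 1.1 to 17.8% ± 4.6 and Inhbb from 11.5% ± 1.5 to 8.76% ± 0.91 (SD, n = 5 and 4).

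The windows before the Inhba and Inhbb starts are shown because these 2 genes of one family moved apart. Each is the 250 bases upstream of a RefSeq start (GRCm38.p6), read 5′ to 3′ on the gene's strand, Inhba at chr13:16011601-16011850 (plus strand) and Inhbb at chr1:119422249-119422498 (minus strand). Capitals mark GTCT, the core of the sequence that Smad3 and Smad4 bind, or its reverse complement AGAC.
Inhba: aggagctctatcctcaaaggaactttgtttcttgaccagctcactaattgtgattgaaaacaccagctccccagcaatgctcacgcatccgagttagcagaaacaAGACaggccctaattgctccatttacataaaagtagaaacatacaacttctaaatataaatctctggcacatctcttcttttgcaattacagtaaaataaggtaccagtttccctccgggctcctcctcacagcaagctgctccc
Inhbb: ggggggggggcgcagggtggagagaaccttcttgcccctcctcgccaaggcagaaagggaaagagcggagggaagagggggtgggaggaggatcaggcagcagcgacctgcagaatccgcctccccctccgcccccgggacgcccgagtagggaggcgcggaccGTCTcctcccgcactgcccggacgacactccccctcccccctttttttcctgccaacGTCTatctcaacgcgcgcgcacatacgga
The windows differ in base composition, with 43.2% G and C upstream of Inhba and 68.0% upstream of Inhbb. The GTCT letters occurred at 1 place upstream of Inhba and at 2 upstream of Inhbb, on either strand, and they occur in 82.9% of the 32851 RefSeq windows of this length, so their presence sets neither gene apart.

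The BMP antagonists Nog, Grem1 and Chrd did not pass the test in all 9 mice, although Nog came close. In Nog, which encodes noggin, the ages did not overlap, with 8.15, 9.18, 7.83, 7.63 and 7.60 CPM in young and 6.16, 6.07, 5.96 and 7.51 CPM in old mice. It missed the threshold (-0.33, SE 0.11, edgeR adjusted p = 0.052) and was called lower without old mouse 5, the highest old mouse (-0.41, adjusted p = 0.027). Grem1, which encodes gremlin 1, had the opposite sign, and ranged from 2.35 to 4.26 CPM in young and from 3.23 to 6.87 CPM in old mice (log2 fold change 0.67, SE 0.22, edgeR adjusted p = 0.068). It was called higher without young mouse 2 (0.85, adjusted p = 0.019) or old mouse 4 (0.82, adjusted p = 0.027). With other mice left out the estimate went as low as 0.43 and the adjusted p as high as 0.23. Its highest values were those of young mouse 2 and old mouse 5, the libraries with the highest olfactory bulb sums of their ages. The part of that tissue in Grem1 was not tested. Chrd, which encodes chordin, was the highest of the antagonists per length (16.9 ± 3.4 TPM in young and 15.9 ± 3.3 TPM in old, SD, n = 5 and 4) and was not called (0.08, SE 0.09, adjusted p = 0.64).

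Among the receptors, Tgfbr2, Acvrl1 and Tgfbr3 rose. Tgfbr2 (chr9:116084293-116175360, minus strand), the type II receptor that binds TGF-beta itself, had 20.7, 21.0, 22.2, 24.2 and 21.3 CPM in young mice and 26.2, 28.3, 31.5 and 27.3 CPM in old mice. Every old mouse was above every young mouse, young mouse 4 included, and the log2 fold change was 0.37 (SE 0.07, edgeR adjusted p = 0.0017). The other 3 type II receptors, Acvr2a, Acvr2b and Bmpr2, had estimates below 0. Bmpr2, the most abundant of the 4 per length (28.4 ± 4.1 TPM in young and 23.0 ± 2.2 TPM in old, SD, n = 5 and 4), ranged from 185 to 207 CPM in young and from 160 to 189 CPM in old mice (-0.13, SE 0.05, edgeR adjusted p = 0.094). Tgfbr2 accordingly made up 10.7% ± 0.5 of the summed TPM of the type II receptors in young and 14.3% ± 1.1 in old mice.

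Acvrl1 (chr15:101128522-101145336, plus strand) encodes ALK1, a type I receptor found mainly on endothelial cells. Its levels were 16.5, 15.8, 14.6, 18.5 and 13.8 CPM in young and 21.6, 21.0, 27.1 and 20.3 CPM in old mice. The ages did not overlap, and the log2 fold change was 0.50 (SE 0.10, edgeR adjusted p = 0.0036). Antisense Gm16031 covers 3.0% of its exonic bases. The other 6 type I receptors were not called, with log2 fold changes from -0.13 (Acvr1c) to 0.21 (Tgfbr1). Acvr1b, the activin receptor ALK4 and the most abundant per length (75.1 ± 13.8 TPM in young and 67.5 ± 7.5 TPM in old, SD, n = 5 and 4), differed by 0.02 (SE 0.05, edgeR adjusted p = 0.82). Tgfbr1, the type I partner of Tgfbr2, stood at 24.0, 25.005, 23.4, 34.3 and 25.1 CPM in young and at 29.0, 30.7, 29.2 and 33.3 CPM in old mice, so that young mouse 4 was above every old mouse. With that library its log2 fold change was 0.21 (SE 0.10, edgeR adjusted p = 0.25), and without it 0.32 (adjusted p = 0.0021), with all old mice above the remaining young mice. Tgfbr3 (chr5:107106570-107289629, minus strand), the co-receptor betaglycan that presents TGF-beta 2 to Tgfbr2, had 20.6, 19.4, 18.3, 20.3 and 21.8 CPM in young and 22.3, 25.1, 25.8 and 21.1 CPM in old mice. Of its exonic bases 4.5% are shared with Gm43422 on the same strand. This call had the largest adjusted p of the 13 (0.23, SE 0.07, edgeR adjusted p = 0.047). It was lost, with adjusted p between 0.0662 and 0.149, without any 1 of young mice 1, 2, 3 and 4 or old mice 3 and 4, and also in DESeq2 (adjusted p = 0.053).

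Of the Smads, Smad3 and Smad6 rose. Smad3 (chr9:63646767-63757994, minus strand) had the smallest adjusted p of all the members. It was at 58.1, 59.0, 56.8, 58.3 and 52.4 CPM in young and at 73.3, 70.2, 70.7 and 72.7 CPM in old mice, or 56.9 ± 2.6 against 71.8 ± 1.5 CPM (SD, n = 5 and 4). The gap between the ages was larger than the whole spread within either, the log2 fold change was 0.33 (SE 0.04, edgeR adjusted p = 0.00011), and the adjusted p was at most 0.00059 with any mouse left out. The other 4 receptor-activated Smads had estimates between 0.01 and 0.12. Smad2, which shares activation by TGF-beta and activin receptors with Smad3, differed by 0.04 (SE 0.06, edgeR adjusted p = 0.73), and the BMP-activated Smad1 and Smad5 by 0.01 each (SE 0.05 for both, adjusted p = 0.96 for both). Smad4 was not called (0.14, SE 0.05, adjusted p = 0.076). Smad6 (chr9:63953076-64022059, minus strand), which inhibits BMP signalling and is itself a known BMP target, had the largest change of all the members. It gave 1.88, 2.71, 3.23, 2.46 and 2.41 CPM in young and 3.51, 3.67, 5.86 and 4.11 CPM in old mice, from 36 to 51 and from 52 to 107 counts per library. The ages did not overlap, and the log2 fold change was 0.77 (SE 0.18, edgeR adjusted p = 0.012), with an adjusted p of up to 0.0498 when 1 mouse was left out. The other inhibitory Smad, Smad7, which is far more abundant per length (26.0 ± 6.3 TPM in young and 23.2 ± 2.6 TPM in old, against 2.11 ± 0.77 and 3.09 ± 0.75 TPM for Smad6, SD, n = 5 and 4), did not pass the test (0.02, SE 0.06, adjusted p = 0.86).

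Tgfbr2, Smad3 and Smad6 lie on chromosome 9, and their upstream windows are shown as those of the receptor, effector and inhibitor that rose. They were taken as described for the activin subunits, on the minus strand, at chr9:116175364-116175613 for Tgfbr2, chr9:63757995-63758244 for Smad3 and chr9:64022060-64022309 for Smad6.
Tgfbr2: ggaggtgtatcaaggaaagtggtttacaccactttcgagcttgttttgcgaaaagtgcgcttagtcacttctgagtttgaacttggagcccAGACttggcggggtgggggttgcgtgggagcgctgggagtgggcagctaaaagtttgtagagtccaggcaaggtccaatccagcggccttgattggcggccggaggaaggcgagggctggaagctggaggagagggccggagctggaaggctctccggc
Smad3: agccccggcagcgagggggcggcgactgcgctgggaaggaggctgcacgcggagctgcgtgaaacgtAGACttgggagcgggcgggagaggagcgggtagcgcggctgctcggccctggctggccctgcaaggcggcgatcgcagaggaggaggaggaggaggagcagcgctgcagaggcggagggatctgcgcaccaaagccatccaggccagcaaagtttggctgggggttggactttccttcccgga
Smad6: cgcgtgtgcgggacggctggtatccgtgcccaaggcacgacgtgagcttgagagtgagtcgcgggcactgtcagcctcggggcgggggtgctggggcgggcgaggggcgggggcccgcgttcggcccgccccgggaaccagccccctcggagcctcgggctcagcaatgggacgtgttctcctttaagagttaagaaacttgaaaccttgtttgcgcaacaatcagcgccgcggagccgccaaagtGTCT
Each window held the GTCT letters at 1 place on either strand. None of the 5 windows shown held GGCGCC, a G and C rich sequence that BMP-activated Smads bind, or the palindrome GTCTAGAC, which contains both strands' forms of the shorter motif. On either strand these occur in 9.59% and 0.167% of the 32851 windows. A match gives no evidence of binding, and its absence says only that the letters are not in these bases. RefSeq windows were at hand for 41 of the 58 genes. Id1, Acvrl1 and Bmp7 were not among them.

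The Id genes, which encode helix-loop-helix proteins without a DNA-binding part that block differentiation factors, split. Id1 (chr2:152736251-152737410, plus strand), in brain an endothelial and stem cell gene, had 8.47, 10.3, 9.003, 9.90 and 8.34 CPM in young mice and 14.3, 11.9, 17.2 and 13.5 CPM in old mice, without overlap (log2 fold change 0.63, SE 0.10, edgeR adjusted p = 0.00093). Id3 (chr4:136143497-136145755, plus strand) had 19.5, 20.03, 17.9, 14.2 and 17.7 CPM in young and 26.1, 21.4, 23.2 and 25.2 CPM in old mice, also without overlap (0.43, SE 0.09, edgeR adjusted p = 0.0065). Both stayed called with each mouse left out. Id2 (chr12:25093799-25097140, minus strand) fell slightly, from 81.9, 78.4, 78.8, 74.3 and 77.6 CPM in young to 74.8, 66.0, 71.0 and 68.0 CPM in old mice. Old mouse 1 lay just above the lowest young mouse, number 4. The log2 fold change was -0.16 (SE 0.04, edgeR adjusted p = 0.026), and the call was lost without young mouse 1 or 5 or old mouse 3 or 5 (adjusted p between 0.0509 and 0.0778). Id4 was not called (0.11, SE 0.06, adjusted p = 0.25).

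Per length Id2 was the most abundant Id gene in both ages, at 162 ± 33 TPM in young and 128 ± 17 TPM in old mice (SD, n = 5 and 4), and the make-up of the family shifted. Id2 held 50.7% ± 1.0 of the summed TPM of the 4 genes in young and 43.7% ± 0.9 in old mice, Id1 6.55% ± 0.75 and 9.72% ± 1.20, and Id3 8.19% ± 0.74 and 10.6% ± 0.9. Within the receptor-activated Smads, Smad3 went from 29.9% ± 0.8 to 34.3% ± 0.8 and Smad1 from 14.1% ± 0.6 to 12.9% ± 0.8. Within the inhibitory Smads, Smad6 went from 7.38% ± 0.86 to 11.7% ± 2.7. For each of these shares, and for that of Tgfbr2, no old mouse overlapped the young mice. The exact permutation p was 0.00794 (two-sided), the smallest that 126 splits allow, or 0.033 when adjusted over the 42 shares. These shares come from the same mice as the calls and are not separate support for them. In all 42 such shares were compared, and a share falls whenever another gene of its group rises.

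**Figure D3:**
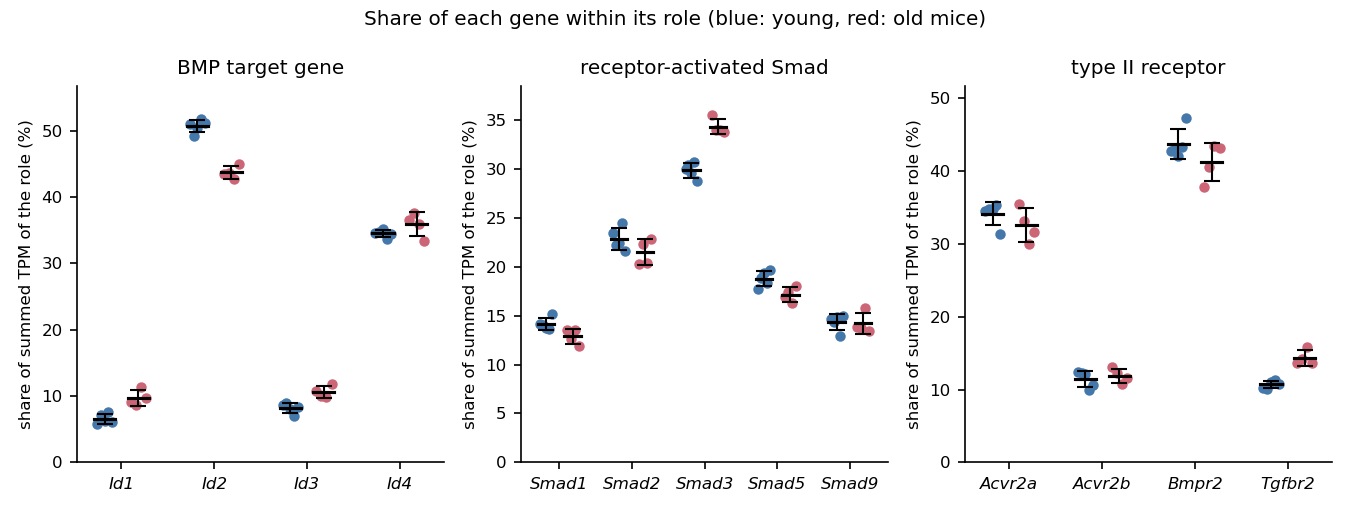
Percent of the summed TPM of a group held by each of its genes, for the Id genes, the receptor-activated Smads and the type II receptors, in young (blue) and old (red) mice with mean and SD. Id2 drops from 50.7% to 43.7% of the Id genes while Id1 and Id3 gain, Smad3 gains among its group, and Tgfbr2 rises from 10.7% to 14.3% of the type II receptors.

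Beyond the symbol rule, 66 other genes of the pathway were examined, covering antagonists, ligand activation, co-repressors and classical target genes. Of the 58 that could be tested, 7 were higher and 2 lower in old brain. That is 15.5%, beside 11.0% of all tested genes and 12.9% of tested protein-coding genes. By direction, 6.09% of all tested genes were called higher and 4.89% lower. Klf10, a TGF-beta-inducible early gene, fell, from 28.1, 31.8, 23.3, 26.4 and 25.3 CPM to 20.9, 19.1, 17.7 and 20.5 CPM (-0.46, SE 0.08, edgeR adjusted p = 0.0018). Every old mouse was below every young mouse. Among other listed target genes, Ccn2 (0.55, SE 0.16, edgeR adjusted p = 0.067), Tgfbi (0.41, SE 0.13, adjusted p = 0.059) and Pmepa1 (-0.12, SE 0.06, adjusted p = 0.26) were not called. Ccn2 was called higher without young mouse 2 (0.67, adjusted p = 0.012), and with other mice left out went as low as 0.40 (adjusted p up to 0.13). Like Grem1 it was highest in young mouse 2 (26.6 CPM) and old mouse 5 (38.5 CPM). Tgfbi was called higher without old mouse 1 (0.51, adjusted p = 0.020) or old mouse 5 (0.48, adjusted p = 0.044). With other mice left out it went as low as 0.26 (adjusted p up to 0.23).

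Of the listed genes for the latent TGF-beta complex and its release, Nrros and Itgav rose and Fbn1 fell. Ltbp1, Ltbp2, Ltbp3, Ltbp4, Lrrc32, Itgb8, Thbs1 and Fbn2 were not called, with log2 fold changes between -0.15 (Lrrc32) and 0.53 (Thbs1, SE 0.27, edgeR adjusted p = 0.25), and Itgb6 had too few counts to be tested. Nrros, which tethers latent TGF-beta 1 on microglia, rose from 3.78 to 5.27 CPM in young to 6.06 to 9.52 CPM in old mice (log2 fold change 0.76, SE 0.14, edgeR adjusted p = 0.0026). Itgav, the alpha v integrin chain that activates latent TGF-beta, had 92.5, 97.3, 91.5, 91.5 and 90.6 CPM in young and 110, 123, 109 and 123 CPM in old mice (0.32, SE 0.04, edgeR adjusted p = 0.00018). Fbn1, fibrillin 1 of the matrix that stores latent complexes, fell from 12.4 to 14.6 CPM in young to 8.39 to 11.1 CPM in old mice (-0.44, SE 0.09, edgeR adjusted p = 0.0048). In each of these 3 genes the ages did not overlap. Gm9913 shares 20.1% of the exonic bases of Fbn1 on the opposite strand, and how reads of those bases were assigned is not known. Smaller rises were called for Nbl1, a BMP antagonist (0.25, adjusted p = 0.017), Ski, a Smad co-repressor (0.14, adjusted p = 0.018), Trim33, a Smad4 regulator (0.14, adjusted p = 0.025), and the ligand-processing protease Furin (0.17, adjusted p = 0.040), all in edgeR. Each of these 4 lost its call when certain single mice were left out: Nbl1 without old mouse 4 (adjusted p = 0.064), Ski without old mouse 1 or 5 (0.0550 and 0.0590), Trim33 without young mouse 3 or old mouse 3 (0.0722 and 0.0810), and Furin without young mouse 1, 3 or 4 or old mouse 1, 4 or 5 (0.0631 to 0.118).

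**Figure D4:**
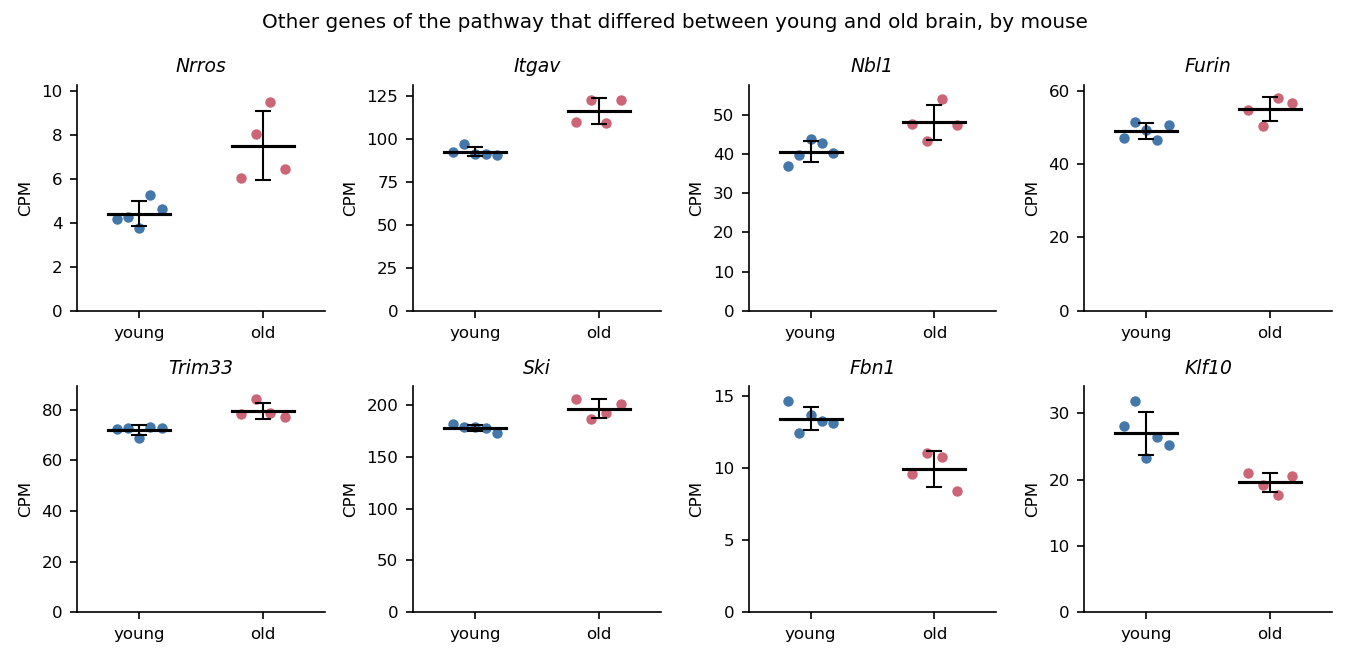
CPM (vertical axes from 0) of called genes of the pathway outside the symbol rule, 1 gene a panel, in the 5 young (blue) and 4 old (red) mice, with mean and SD. Nrros, Itgav, Trim33 and Ski are higher in every old mouse than in every young mouse, Fbn1 and Klf10 are lower in every old mouse, and Nbl1 and Furin overlap.

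Several of the called members are textbook genes of vascular cells or microglia, and the summed markers of those cells are given for comparison. None of these sums passed the test after adjustment over 15 lists. With 126 splits the exact test allows no p under 0.00794. Endothelial markers were at that floor and still came to 0.060 when adjusted, so not passing does not show that a list was unchanged. The 8 endothelial markers summed to 250 to 268 CPM in young and 282 to 322 CPM in old mice, a ratio of 1.17 between the means (two-sided exact permutation p = 0.00794, or 0.060 when adjusted). Of these markers 4 of 8 were called higher, with fitted fold changes of 1.30 (Pecam1), 1.20 (Cdh5), 1.19 (Flt1) and 1.92 (Ly6c1). The other 4 were not called, with fitted fold changes of 0.81 (Kdr), 0.91 (Cldn5), 0.99 (Tek) and 1.08 (Slco1a4). The fitted fold changes of Acvrl1, Id1 and Smad6 were 1.42, 1.55 and 1.70. Pericyte and smooth muscle markers had a ratio of 1.06 (exact permutation p = 0.24, adjusted 0.38), with 2 of 8 called higher. The homeostatic microglia list summed to 215 to 296 CPM in young and 287 to 345 CPM in old mice (ratio 1.28, exact permutation p = 0.024, adjusted 0.089; 1 of 8 called higher), and the reactive list had a ratio of 1.41 (exact permutation p = 0.024, adjusted 0.089; 3 of 8 called higher). The fitted fold changes of Tgfbr2 and Smad3 were 1.29 and 1.26. No marker of these lists was at 0 in any library, although Itgax, Clec7a and Cst7 of the reactive list were at 1 to 3 counts in their lowest young library. The part of vascular cells and microglia in the changes of Acvrl1, Id1, Id3, Smad6, Tgfbr2, Smad3 and Tgfb1 was not tested.

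**Figure D5:**
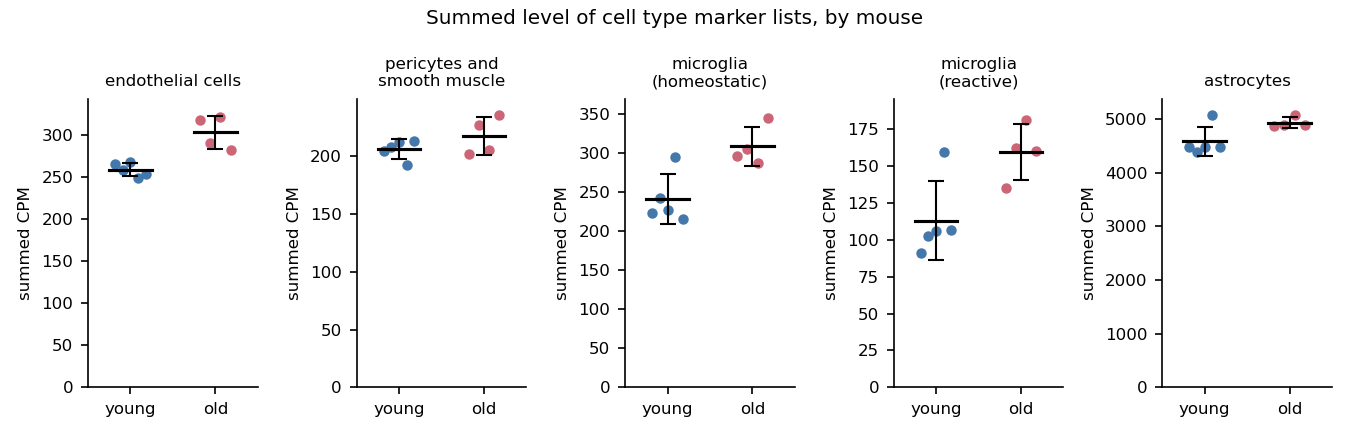
Summed CPM (vertical axes from 0) of 5 marker lists in the 5 young (blue) and 4 old (red) mice, with mean and SD. The endothelial sums of 282 to 322 in old mice lie above the 250 to 268 of young mice, and the isolated young point in both microglia panels and the astrocyte panel is young mouse 4.

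Among the other marker lists blood had the largest ratio between the age means. Astrocyte markers had a ratio of 1.08 (0 of 8 called), oligodendrocytes 1.11 (2 higher and 1 lower of 6), their precursors and newly formed oligodendrocytes 1.07 (2 of 6 lower), meningeal and perivascular fibroblasts 1.08 (1 of 7 lower), choroid plexus 1.02 (1 of 7 lower), ependyma 0.821 (1 of 6 lower), neurogenesis 0.998 (1 of 7 lower), neurons 1.004 (1 of 8 lower) and olfactory bulb 1.14 (0 of 6, exact permutation p = 0.69). Calb2, the largest part of the olfactory bulb sum, had an estimate of -0.26, and the other 5 had estimates above 0, up to 1.52 (Cdhr1). Of the astrocyte markers 2 of 8 had estimates below 0. Gfap had the largest estimate there (1.07, SE 0.34, edgeR adjusted p = 0.091). It stood at 191, 204, 221, 514 and 211 CPM in young and 434 to 638 CPM in old mice. In the precursor list the sum joined estimates of both signs, of which only falls were called. Gpr17 (log2 fold change -0.83, edgeR adjusted p = 1.3e-06) and Neu4 (-0.31, adjusted p = 0.0499) were lower, while Bcas1 had an estimate of 0.28 (adjusted p = 0.12). The 5 blood markers ranged from 86.1 to 116 CPM in young and from 128 to 409 CPM in old mice (ratio 2.45, exact permutation p = 0.00794, adjusted 0.060), with 3 of 5 called higher. Old mouse 4, with the most, was also the highest old mouse for Id1, Acvrl1, Smad6, Tgfbr2 and Tgfb1. Without it these genes kept their direction, and Id1, Acvrl1, Smad6 and Tgfbr2 kept their calls. The other old mice, at 128 to 262 CPM of blood markers, still lay above every young mouse. Leaving out old mouse 4 therefore does not separate blood from age. Whether blood took part in those values was not tested.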

How the data were processed

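Whole-brain RNA of 5 young and 4 old mice was sequenced by short-read sequencing. The authors trimmed reads with Trimmomatic, aligned them to GRCm38 (mm10) with STAR, and counted uniquely mapped reads in exons per gene with featureCounts. They deposited raw counts, counts divided by DESeq2 size factors (a normalized signal), and TPM values, scaled by gene length and library total. Whether counting used strand is not given in the sources used here, so reads of overlapping genes on opposite strands cannot be told apart. Each table also held 1 column that matched no sample, which was not used. Symbols matched 49056 of the 49315 gene IDs.

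The counts were tested with edgeR 4.0.16 (R 4.3.3): filterByExpr (minimum count 10, minimum total 15), TMM factors, robust quasi-likelihood fit of old against young, and Benjamini-Hochberg adjustment over 18492 genes. The robust option was chosen after the calls with and without it were known. CPM values use TMM-scaled library sizes. SE is the log2 fold change divided by the square root of the F statistic. Library totals of 14229259 to 21150439 counts, and a biological coefficient of variation of 6.71%, set the precision. Replicates of an age differed by more than sampling noise (chi-square per degree of freedom at least 4.05). The fit was tested on simulated data.

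The genes, roles and lists (66 other pathway genes and the marker lists of microglia, astrocytes, neurons, oligodendrocytes and their precursors, endothelial cells, pericytes and smooth muscle, fibroblasts, choroid plexus, ependyma, neurogenesis, olfactory bulb and blood) were chosen with earlier results of these data known. Named are each called member and each called gene of the other pathway list. Also named are members whose ages did not overlap, the highest TPM and the largest change in each role, and the untested members. Members whose call depended on 1 library were added after their values were seen. Genes of the lists that were not called are named only in part. Called genes counted in the text but not named are not reported here. Alternatives were DESeq2 1.42.0, limma 3.58.1 on log2 values, other size factors and filters, a replicate block and leaving out each mouse. An edgeR fit without the robust option and limma on median-centred TPM were added after seeing the data. Gene coordinates are from GENCODE vM21, upstream sequences from RefSeq (GRCm38.p6).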

Additional observations from a re-analysis of the deposited data

Results flagged for a closer look

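In 92 groups (46 tested genes in each age) the highest or lowest mouse was compared with the others of its age by Dixon's criterion, which chance alone meets in about 1 of 20 groups. It was met 6 times, beside 4.6 by chance. Young mouse 4 was far above the other young mice for Tgfb1 (9.71 CPM, others 5.81 to 6.64) and for Tgfbr1 (34.3 CPM, others 23.4 to 25.1). Bmp6 was high in young mouse 2 (14.2 CPM, others 9.35 to 10.6) and low in old mouse 1 (12.01 CPM, others 17.0 to 18.02). Nog was high in old mouse 5 (7.51 CPM, others 5.96 to 6.16), and Smad9 was high in old mouse 4 (31.8 CPM, others 27.4 to 28.1). Reactive microglia markers were also high in young mouse 4, and their part in its Tgfb1 and Tgfbr1 levels was not tested.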

How the results depend on the processing

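The 13 called members kept their direction in all 20 alternatives, and 8 of them (Smad3, Smad6, Id1, Id3, Tgfbr2, Acvrl1 and Inhbb among them) kept their call in 18, losing it only in limma on log2(TPM + 1) and log2(TPM + 0.1), where no member was called in either direction (0 higher and 0 lower, and 0 past the fold threshold). On those scales the median of all genes shifted to -0.14 and -0.16 and that of the members to -0.0886 and -0.0938, and Furin (-0.00352 and -0.00318), Ski (-0.0223 and -0.0225) and Trim33 (-0.0189 and -0.0193) changed sign; of the other pathway genes 1 was called higher in each, and 1 lower with the pseudocount of 1. With the TPM libraries centred on their medians, an alternative added after seeing the data, 7 members were higher and 4 lower, 0 passed the fold threshold, and 4 other pathway genes were higher and 1 lower. DESeq2 called 11 higher and 3 lower, adding Grem1 and Tgfb1, and edgeR without the robust option, also added later, 9 and 3; both lost Tgfbr3. Without a filter on low counts 13 were higher and 6 lower. At an adjusted p under 0.01, 5 were higher, and at one under 0.1, 5 were lower.

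Leaving out 1 mouse gave 7 to 10 higher and 2 to 4 lower members, 2 to 5 past the fold threshold and a median of 0.0398 to 0.0967. Members that gained a call this way had larger edgeR adjusted p values with other mice left out, up to 0.45 for Tgfbr1. The replicate numbers did not pair the mice, since only 1 of 4 old mice correlated best with its own number (correlations between -0.12 and 0.17). With the replicate number as a block 12 members were higher and 3 lower, 4 of them past the fold threshold, Grem1, Tgfb1 and Tgfb3 being added and Tgfbr3 lost. No member was lower past the fold threshold in any setting; 23 of the 46 had an unadjusted p under 0.05. Depth limits the genes with few counts: Smad6 had 36 to 51 counts in young libraries, and 12 members could not be tested. The causes of these differences were not tested.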
